A study of Drosophila melanogaster with 3 samples.

Results

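Mitochondrial ribosomal protein genes were taken as the protein-coding genes of the dm6 annotation of Drosophila melanogaster whose symbol starts with mRpL or mRpS followed by a digit. The rule gave 73 genes of 13945 protein-coding genes, 47 for the large subunit (mRpL) and 26 for the small subunit (mRpS). Mitochondria translate the few messages of their own genome, most of which encode subunits of the respiratory chain, on a ribosome of bacterial descent. Its RNAs come from the mitochondrial genome, whereas its proteins are encoded in the nucleus, made in the cytosol and imported. Some of these proteins have bacterial counterparts and others are particular to mitochondria.

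The data were chromatin immunoprecipitation with sequencing (ChIP-seq) for pdm3, a transcription factor of the POU class that, as background, acts in the identity of olfactory neurons. The flies were a transgenic line with GFP at the C terminus of pdm3, collected as whole white prepupae of pooled sex, and the antibody was against GFP. The labels do not name the promoter that drives the tagged protein. There were 3 biological replicates of this 1 group and no second genotype, stage or treatment. Chromatin of whole animals mixes all tissues, so the cells in which a site was occupied cannot be told from these lists, and the control library was not analysed here.

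The authors' lists comprised 8164 peaks that passed a reproducibility analysis (the optimal list) and 30000 candidate peaks each for the pooled data and for each replicate. A gene is called bound below when a peak's summit in the optimal list lay within 1 kb of any of its transcript starts. Signal values are the authors' own and serve here for ranks inside each list, where rank 1 is the highest. No read depth is given in the lists, so depth is unknown and the intervals on shares cover counting error over genes only. Peak lists hold no RNA values, and a summit at a promoter says nothing here about the level of a transcript.

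Sequences under member summits are shown first, because the summit windows carry the comparison of motifs further on. Each runs from 50 bp before to 50 bp after the summit on dm6 (RefSeq sequence), 5′ to 3′ on the strand of the named gene. Capitals mark any of 12 motifs that were searched on both strands. mRpS23 and mRpS10 are among the 3 highest summits of these genes and hold none of the motifs, and the other 3 hold at least 1. The windows are chr2L:13835406-13835506 (minus strand) for mRpS23, chr3R:15229466-15229566 (plus) for mRpS10, chr2L:4945438-4945538 (minus) for mRpL24, chr2L:10386427-10386527 (plus) for mRpS7 and chr3L:16004929-16005029 (plus) for mRpS31.
mRpS23: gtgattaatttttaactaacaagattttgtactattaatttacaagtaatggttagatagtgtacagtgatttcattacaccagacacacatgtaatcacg
mRpS10: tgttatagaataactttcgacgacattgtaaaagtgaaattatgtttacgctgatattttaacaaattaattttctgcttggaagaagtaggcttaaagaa
mRpL24: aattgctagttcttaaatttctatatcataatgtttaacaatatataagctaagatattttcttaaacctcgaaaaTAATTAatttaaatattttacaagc
mRpS7: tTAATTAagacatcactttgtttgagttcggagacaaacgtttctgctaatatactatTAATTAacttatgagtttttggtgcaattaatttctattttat
mRpS31: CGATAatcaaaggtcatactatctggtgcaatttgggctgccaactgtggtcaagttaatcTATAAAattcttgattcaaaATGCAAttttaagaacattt

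An optimal summit lay within 1 kb of a start site at 25 of the 73 genes, or 34.2% (95% Wilson interval 24.4 to 45.7), against 21.3% of all protein-coding genes. The interval lies above the background. With each summit given to its nearest start site only, 10 of the 73 genes were bound (13.7%, 7.61 to 23.4), against 16.8% of all genes, so the higher share is not seen under that rule. Among the lists set beside them, 52 of 92 cytosolic ribosomal protein genes found by symbol were bound (56.5%, 46.3 to 66.2). Of 45 other genes of mitochondrial translation and gene expression, 6 were bound (13.3%, 6.26 to 26.2). In the optimal list the intervals of the mitochondrial and cytosolic ribosomal protein genes do not overlap, but their ends, 45.7 and 46.3, are close. Those of the mitochondrial ribosomal protein genes and the other mitochondrial genes do overlap. No set test was run on lists chosen with results of these data known, so these are descriptions.

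The same genes were examined in each replicate's own list, reduced to its first 8164 peaks so that the lists were equally long. A summit lay within 1 kb at 39.7% of the mitochondrial ribosomal protein genes in replicate 1, 32.9% in replicate 2 and 43.8% in replicate 3. The corresponding shares of all protein-coding genes were 23.4%, 22.7% and 25.2%. The mean over replicates was 38.8% ± 5.54 for the 73 genes and 23.8% ± 1.27 for all genes (SD, n = 3 each), and the share was above that of all genes in 3 of 3 replicates. In the tops of all 3 lists 21 of the 73 genes had a summit, or 28.8%, against 17.4% of all genes. In the first 8164 peaks the intervals of mitochondrial and cytosolic ribosomal protein genes overlapped in replicate 1 (29.3 to 51.2 and 47.4 to 67.2). They also did in replicate 3 (33.0 to 55.2 and 53.9 to 73.2), but not in replicate 2 (23.2 to 44.3 and 51.7 to 71.2).

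The difference from the background was smaller in the longer lists. Of the 73 genes 31 had a pooled candidate summit within 1 kb, or 42.5% (31.8 to 53.9), and the interval holds the 37.4% of all genes. In the whole replicate lists of 30000 peaks the share was 47.9%, 39.7% and 57.5% in replicates 1, 2 and 3, against 41.2%, 41.3% and 44.2% of all genes. In replicate 2 it therefore lay below that of all genes, and above it in the other two. These lists contain peaks and background by their own description, so their lower part holds peaks that did not pass the reproducibility analysis.

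**Figure D1:**
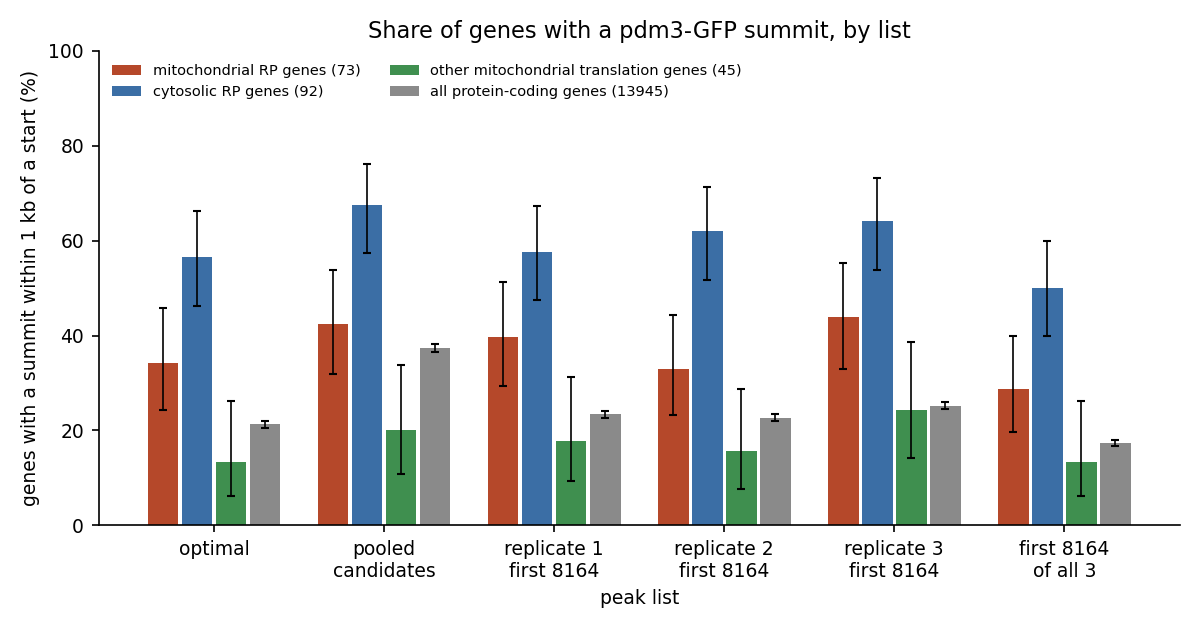
Share of genes (%) with a pdm3-GFP summit within 1 kb of a transcript start in 6 peak lists, for the 73 mitochondrial ribosomal protein (RP) genes, 92 cytosolic RP genes, 45 other mitochondrial translation genes and all 13945 protein-coding genes. Bars are shares and whiskers are 95% Wilson intervals over genes. The mitochondrial RP genes stand between the cytosolic RP genes and all genes in each of the 6 lists, at 34.2% against 21.3% of all genes in the optimal list.

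Small subunit genes were bound at 12 of 26 (46.2%, 28.8 to 64.5) and large subunit genes at 13 of 47 (27.7%, 16.9 to 41.8), against 21.3% of all genes. The intervals of the subunits overlap, and that of the large subunit holds the background. The share of the small subunit was not the same in all replicates, at 50%, 34.6% and 46.2% in the first 8164 peaks of replicates 1, 2 and 3. Where the optimal peak also had to be covered by the first 8164 peaks of all 3 replicates, 13 large (27.7%) and 6 small (23.1%, 11 to 42.1) subunit genes were left, against 14.9% of all genes. The small subunit count was 11 when replicate 2 was left out of this requirement, and 6 without replicate 1 or without replicate 3. The 6 small subunit genes lost were mRpS2, mRpS6, mRpS7, mRpS16, mRpS24 and mRpS25. By summits of the replicate lists themselves, 8 small subunit genes (30.8%) and 13 large subunit genes (27.7%) were in the tops of all 3. A difference between the subunits is therefore not shown.

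The binding of the 25 genes covered a wide range of ranks, and 4 genes stood far above the others. mRpS23 (FBgn0260407), which encodes a small subunit protein particular to mitochondria, had the highest summit, with a signal value of 2814 and rank 12 of the optimal list (chr2L:13835254-13835664). mRpL41, for a large subunit protein particular to mitochondria, followed with 2573 and rank 17. mRpS10, whose bacterial counterpart sits in the head of the small subunit, had 2337 and rank 23 (chr3R:15229322-15229750). mRpL23, whose bacterial counterpart lies at the exit of the peptide tunnel, had 1918 and rank 38 (chr3L:2373402-2373814). The next gene, mRpL24, was at 880 and rank 281.

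These 4 peaks were high in every replicate. In the candidate lists of replicates 1, 2 and 3 the mRpS23 peak ranked 12, 10 and 13, the mRpL41 peak 16, 20 and 15, and the mRpS10 peak 19, 23 and 25. The mRpL23 peak ranked 37, 68 and 35, lower in replicate 2 than in the other two. The peak at mRpL24, another large subunit gene with a bacterial counterpart, ranked 205, 430 and 303. The first 3 genes thus kept within the 25 highest peaks of each list, and all 5 within the first 430.

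The next 10 genes by signal were mRpS2 (553, rank 774), mRpL20 (465, rank 1030), mRpS6 (442, rank 1106), mRpS7 (317, rank 1821), mRpL34 (281, rank 2213), mRpL2 (266, rank 2382), mRpL18 (265, rank 2392), mRpL37 (261, rank 2454), mRpS31 (250, rank 2599) and mRpS26 (234, rank 2838). Most of them have bacterial counterparts, among them mRpL2, a protein near the catalytic centre of the ribosome, and mRpS7, which binds RNA in the head of the small subunit. mRpL37, mRpS26 and mRpS31 are particular to mitochondria. The weakest of the 25, chosen after its values were seen, was mRpS16 with 105 at rank 6965. By position, the 25 genes were like other bound genes. Their median rank was 2454, in the top 30.1% of the optimal list, against 2572 and the top 31.5% over all bound genes.

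In the replicate lists the 25 genes had median positions in the top 9.54%, 11.9% and 8.59% of replicates 1, 2 and 3, a mean of 10% ± 1.70 (SD, n = 3). Over all bound genes the medians were 9.60%, 10% and 9.03%. The 25 genes thus stood slightly higher than all bound genes in replicates 1 and 3 and lower in replicate 2. The median of replicate 2 rests on the 21 of the 25 genes covered there. The direction was not the same in all replicates, so no difference in position is shown.

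Single genes varied more between replicates. Among the 21 genes covered in all 3 replicates, the most variable positions by the ratio of SD to mean were those of mRpS25 (0.543), mRpS26 (0.495) and mRpL2 (0.473). The mRpS25 peak ranked 5161, 10348 and 3726 in replicates 1, 2 and 3, and the mRpS26 peak 2786, 5651 and 2375, both lowest in replicate 2. The mRpL2 peak went the other way, with 4252, 1665 and 2475, highest in replicate 2.

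Replicate 2 also lacked a peak over at least 50% of the optimal peak at 4 of the 25 genes, whereas replicates 1 and 3 had one at all 25. Over all bound genes the covered share was 96.6%, 89.2% and 98.3% in replicates 1, 2 and 3. At mRpS2 and mRpS6 replicate 2 did hold a narrow peak, at ranks 1025 and 1369, which covered 47.8% and 42.3% of the optimal peak. At mRpS24, chosen after its values were seen, and at mRpS7 the nearest summit of replicate 2 was 6601 and 46725 bp away. Whether depth plays a part was not tested, since the lists give none.

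**Figure D2:**
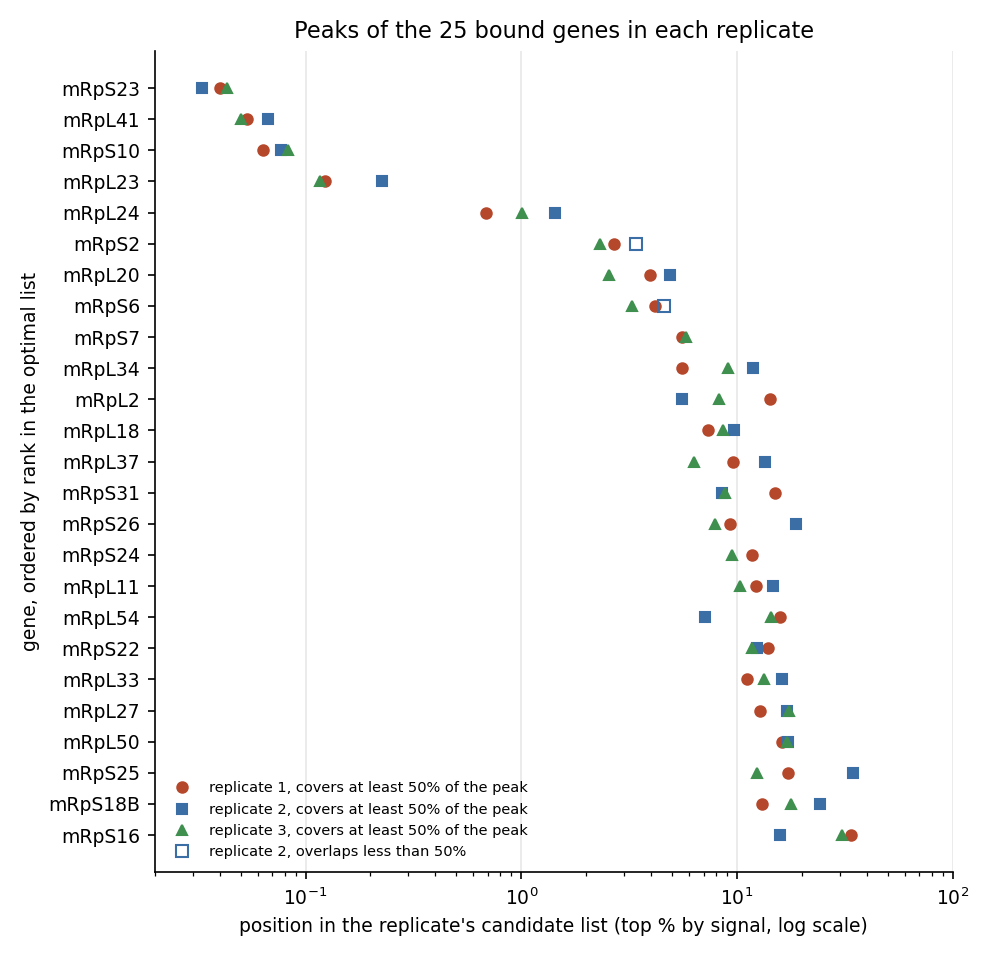
Position of the peak at each of the 25 bound mitochondrial ribosomal protein genes in the candidate lists of replicates 1, 2 and 3 (top % by signal, log scale), with genes ordered by rank in the optimal list. Filled symbols cover at least 50% of the optimal peak and open squares overlap it by less. The first 4 genes stand apart on the left in every replicate, and mRpS7 and mRpS24 have no symbol for replicate 2.

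Most mitochondrial ribosomal protein genes shared their promoter region with another gene, the 25 bound ones included. A promoter is called divergent here when the start of another protein-coding gene lies within 1 kb on the opposite strand, head to head. This was so for 58 of the 73 genes (79.5%), against 36.2% of all protein-coding genes. Of the rest, 2 had a neighbour on the same strand within 1 kb and 13 had none. No promoter was shared by a pair of mitochondrial ribosomal protein genes.

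All 25 bound genes were among the 58 divergent ones, a share of 43.1% (31.2 to 55.9), against 29.7% of all divergent genes. None of the other 15 genes was bound, with an upper bound of 20.4%, against 16.5% of all genes without a divergent start and 16.4% of genes with no neighbour at all. That interval holds the background, so with 15 genes an absence of binding from lone promoters is not shown. Since divergent genes as a whole were bound more often, the arrangement moves with the result, and its part in the share of 34.2% was not tested beyond these strata. Within the divergent genes the interval of the mitochondrial ribosomal protein genes lay just above the background, with a lower end of 31.2% against 29.7%. The 25 include mRpL27, whose summit lay 992 bp inside the gene and nearer to a neighbour on the same strand. With so small a margin, a higher share among divergent genes is not firmly shown. It was not examined under the rule of the nearest start site. Among divergent cytosolic ribosomal protein genes 35 of 55 were bound (63.6%, 50.4 to 75.1), an interval that overlaps the 31.2 to 55.9 above.

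**Figure D3:**
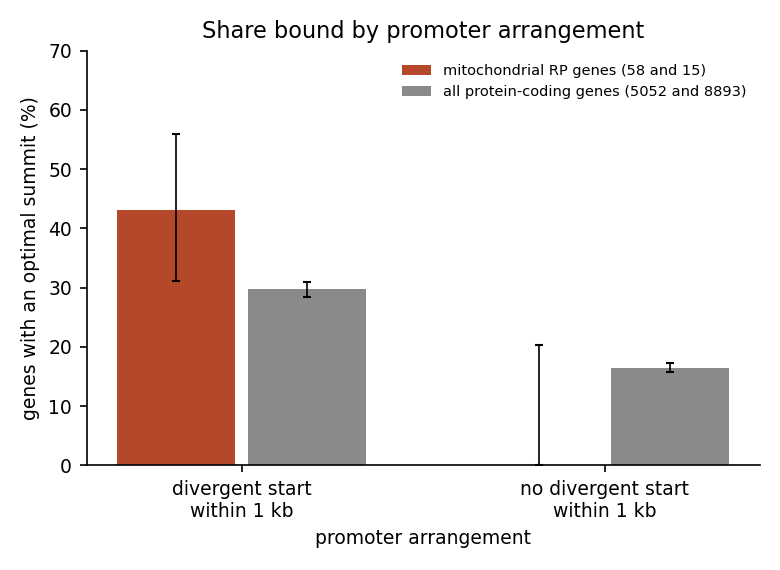
Share of genes (%) with an optimal summit within 1 kb, by whether another protein-coding gene starts head to head within 1 kb, for mitochondrial ribosomal protein (RP) genes and all protein-coding genes. Bars are shares and whiskers 95% Wilson intervals over genes. Bound mitochondrial RP genes fall in the divergent class, at 43.1% against 29.7% of all divergent genes, and the empty place on the right is 0 of 15.

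Another protein-coding gene started within 1 kb of every one of the 25 summits (100%, 86.7 to 100), against 49.4% over all bound genes. This largely restates the arrangement, since all 25 genes have a divergent neighbour, as do 50.7% of all bound genes. A summit near both starts belongs to neither gene alone. In 24 cases the neighbour was on the opposite strand. The starts of gene and neighbour were a median of 395 bp apart, between 20 and 1238 bp, and 22 pairs were within 500 bp. The summit lay between the starts in 21 cases, and it was nearer to the neighbour in 16 and to the mitochondrial ribosomal protein gene in 9. The 21 include mRpL27, whose neighbour here is on the same strand, 1238 bp away. These counts were not made for other bound divergent genes, so they are not shown to be particular to these genes.

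The neighbours of the highest summits are of many functions. The mRpS23 summit lay 384 bp upstream of mRpS23 and 108 bp from CenG1A, for a protein of the centaurin family. The mRpS10 summit was 149 bp upstream of mRpS10 and 108 bp from Art3, for an arginine methyltransferase. At mRpL41 the order was the reverse, with 143 bp to mRpL41 and 619 bp to CG8079. The mRpL23 summit was 59 bp downstream of the mRpL23 start and 109 bp from that of CG9004.

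At mRpL24 the neighbour was betaggt-I, for a subunit of a protein prenyltransferase, and at mRpL20 it was Icmt, for the methyltransferase that acts on prenylated proteins. The mRpS2 summit was 54 bp from Mon1, an endosome trafficking gene, and the mRpS7 summit 215 bp from Cdk1, the mitotic kinase. Taz, at mRpL18, encodes tafazzin, the enzyme that remodels the mitochondrial lipid cardiolipin. Further neighbours were Cip4 and CG33514 at mRpS6, Dg (dystroglycan) at mRpL34, FoxK at mRpL2, hzg at mRpS31 and CG13698 at mRpS26.

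The summits lay mostly upstream and close to the start. The median position was -170 bp relative to the start of the mitochondrial ribosomal protein gene, against -164 bp over all bound genes, and 23 of 25 were upstream (92%, against 80.1%). Within 500 bp were 22 of 25 (88.0%, against 76.6%). Summits of the bound cytosolic ribosomal protein genes were closer, with a median of -38.5 bp. The clear exception, singled out after its values were seen, was mRpL27, whose summit was 992 bp inside the gene and 246 bp from RpL27A, a cytosolic ribosomal protein gene on the same strand. Just outside the threshold was mRpL32, with the nearest optimal summit 1331 bp from its start. At 3 genes (mRpL54, mRpS22 and mRpS31) 2 summits lay within 1 kb, which made 28 summits in all. Positions and distances above use the higher summit of each. At mRpS22 and mRpS31 the lower summit was nearer to the start, 60 and 14 bp away, against 261 and 214 bp for the higher. The count of 3 was not set beside that of other bound genes.

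**Figure D4:**
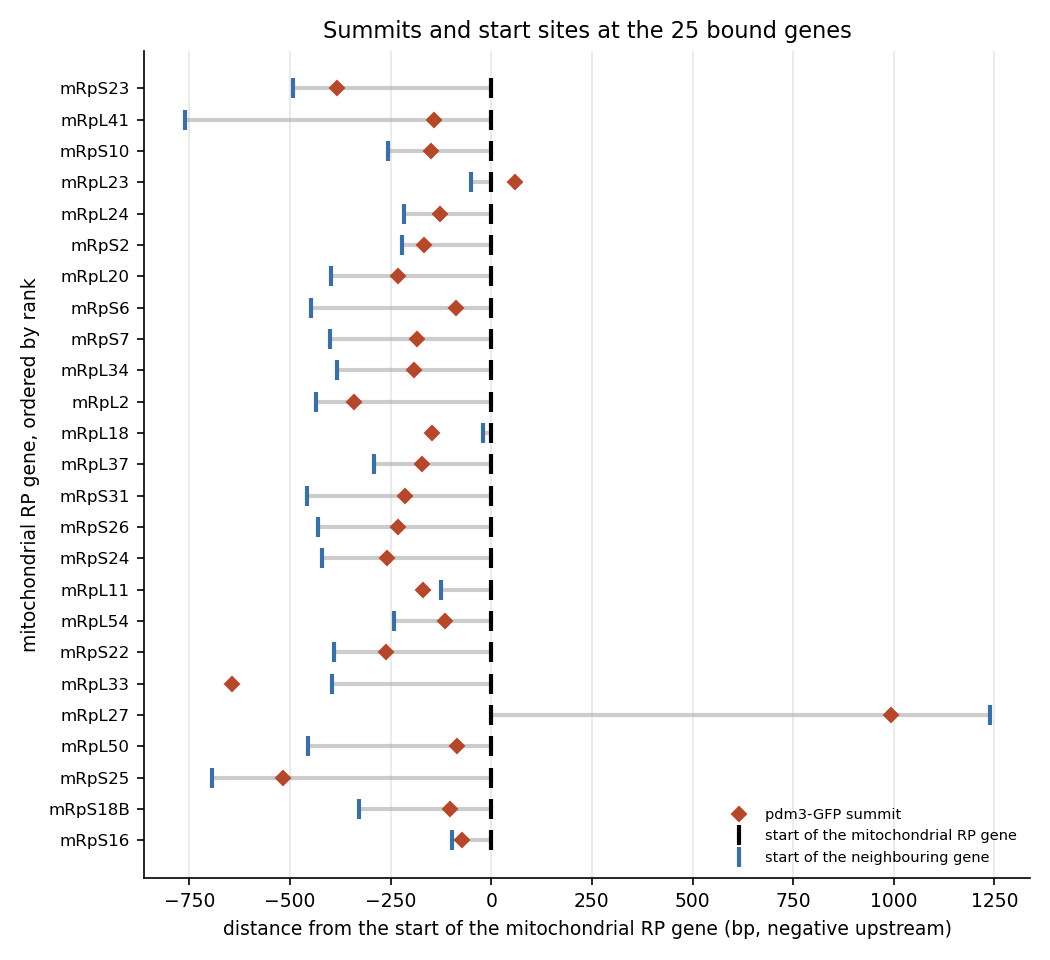
Distance (bp, negative upstream) of the optimal summit (diamond) and of the neighbouring start (blue bar) from the start of each of the 25 bound mitochondrial ribosomal protein (RP) genes (black bar at 0), ordered by rank. In 21 of 25 cases the summit lies between the starts, and mRpL27 alone has both its summit and its plotted neighbour to the right.

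Of the 48 genes outside the optimal list, 6 had a pooled candidate within 1 kb (12.5%, 5.86 to 24.7), against 20.5% of all genes without an optimal summit, and 42 had none. The highest of these candidates were at mRpL49 (rank 9756), mRpL55 (rank 10365), mRpS5 (rank 10461) and mRpL19 (rank 12187), all past rank 8164. The 25 bound genes had the same ranks in the pooled list as in the optimal list, so a rank past 8164 is no separate result. From the 48 genes the nearest optimal summit was a median of 9212 bp away, against 10118 bp over all unbound genes. Of the 48, 13 had one within 5 kb (27.1%, against 26.6%). The distances of the unbound genes were thus like those of unbound genes in general.

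Single replicates held peaks at some of these 48 genes. In the first 8164 peaks of at least 1 replicate 10 of them had a summit within 1 kb (20.8%, against 11.9% of all genes without an optimal summit). At 5 genes (mRpL4, mRpL21, mRpL35, mRpL51 and mRpS21) the tops of at least 2 replicates held one while the pooled list had no candidate within 1 kb. That is 6.85% of the 73 genes, against 2.52% of all genes. The mRpL4 peak ranked 4150 in replicate 1 and 3094 in replicate 3, and the mRpS21 peak 3287 and 5309 in the same replicates. These ranks are like those of genes in the lower part of the bound set. Of the top peaks near the 73 genes, 16.1%, 3.85% and 25% overlapped no pooled candidate in replicates 1, 2 and 3, against 9.67%, 8.97% and 13.1% of all top peaks near a start. The cause was not tested, and the count of 25 leaves these genes out.

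The bound genes were spread over the arms X (2 of 11, against 26.2% of all genes on the arm), 2L (6 of 12, against 20.2%), 2R (5 of 12, against 18.2%), 3L (7 of 17, against 21.3%) and 3R (5 of 21, against 21.2%). The members' share was below that of all genes on X and above it on the other 4 arms, with 21 members or fewer on each. No mitochondrial ribosomal protein gene lay on arm 4. The 73 genes were short, with a median length of 909 bp against 2166 bp over all genes, and 91.8% had 1 start site, against 73.5%.

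The windows of 50 bp to either side of the 25 summits held few of the motifs searched. The octamer ATGCAAAT, the classical element of POU factors, was in none, and in 1.40% of all promoter summits. Its half-site ATGCAA, which lies within the octamer, was in 1 (4.00%, against 8.83%), at mRpS31. TATCGATA, the element of the promoter factor DREF, was in none, against 1.70%. TAATTA, a core bound by many homeodomain proteins, was in 4 windows (16.0%, against 9.69%), at mRpL24, mRpS7, mRpS25 and mRpS18B, but in 2 when the peak had to be covered by the tops of replicates 2 and 3, or of 1 and 2. TATAAA, the TATA box, was in 7 (28.0%, against 21.2%).

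CGATA (which lies within TATCGATA) and GAGAG, the element of GAGA factor, were in 1 window each, or 4.00%, against 14.6% and 10.7%. The promoter element GGTCACAC was in none, against 0.833%, nor was GCGCATGC, part of the element of NRF1-type factors, against 0.200%. The E-box CACGTG was in none, against 0.799%, and the E-box CAGCTG in none, against 3.86%. The initiator TCAGTT was also in none, against 6.26%. The 3 highest summits, at mRpS23, mRpL41 and mRpS10, held none of the 12 motifs. With 25 windows, differences of this size rest on a few windows each. Median GC content of the windows was 28.7%, against 32.7% for all promoter summits. A match is a description of letters, not a site, and a missing match is no statement about a factor.

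Another motif was common at the starts of these genes, apart from the summits. CAGCTG, an E-box that reads the same on both strands, was sought from 250 bp before to 50 bp after each start, and a gene counted when any of its starts had it. It was in 41 of the 73 promoters (56.2%), against 22.3% of all promoters. It was in 52.0% of the promoters of bound genes and 58.3% of those of unbound ones. The match nearest to the start had a median position of +2.00 bp over the 41 genes. TATCGATA was in 21.9% of the 73 promoters, against 10.2%, whereas GAGAG was in 17.8%, against 36.4%, and the initiator TCAGTT in 17.8%, against 32.5%. Genes with more starts had more sequence searched, and 91.8% of the 73 genes had 1 start site, against 73.5% of all genes. How much of the lower shares of GAGAG and TCAGTT goes with this was not tested.

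Within 50 bp of a start, CAGCTG was at 36 of the 73 genes (49.3%, 38.2 to 60.5), against 9.78% of cytosolic ribosomal protein genes and 11.9% of all genes. The shares were 48.0% (30.0 to 66.5) of bound and 50% (36.4 to 63.6) of unbound genes, with overlapping intervals. Among divergent genes it was at 50% of the mitochondrial ribosomal protein genes, against 16.7% of all divergent genes. CAGCTG was singled out among the 12 motifs for this window, which was not planned beforehand. The shares and intervals therefore only describe the promoters in which the motif was seen to be common. The promoters of the 73 genes were lower in GC, with a median of 34.6% against 38.5%. Stretches of 30 bases around the motif are shown for 3 bound and 3 unbound genes, 5′ to 3′ on the strand of the gene, with the motif in capitals. They come from chr3L:2373715-2373744 (minus) for mRpL23, chr2L:4945324-4945353 (minus) for mRpL24, chr2L:4850413-4850442 (minus) for mRpS2, chr2L:18859193-18859222 (minus) for mRpL13, chr3L:264780-264809 (plus) for mRpL17 and chr3R:8674105-8674134 (plus) for mRpL19. The first 3 are bound.
mRpL23: gtggttgacaatCAGCTGtttaaaacaagt
mRpL24: ttcagttctcaaCAGCTGattgcaagccgc
mRpS2: aacactacccacCAGCTGtttaccaaaatc
mRpL13: cacactgtctgcCAGCTGagaaattatttt
mRpL17: ataaatggtcgcCAGCTGttcggcgaatgt
mRpL19: tatcggtgctgcCAGCTGattatagtgcgg

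**Figure D5:**
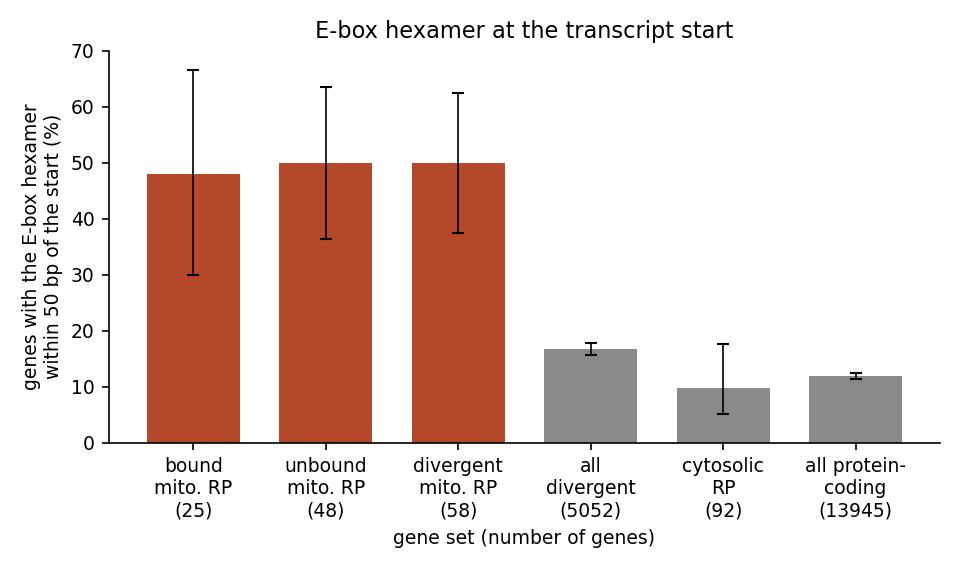
Share of genes (%) with the E-box hexamer within 50 bp of a transcript start, for bound, unbound and divergent mitochondrial ribosomal protein (RP) genes and, in grey, all divergent genes, cytosolic RP genes and all protein-coding genes. Bars are shares and whiskers 95% Wilson intervals over genes. Bound and unbound mitochondrial RP genes are alike, at 48.0% and 50%, and above the 11.9% of all genes.

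Of the 45 other genes of mitochondrial translation and gene expression, the 6 bound ones were of several kinds. PNPase, the mitochondrial polynucleotide phosphorylase, had by far the highest summit, with a signal value of 3389 at rank 5, 79 bp inside the gene, and ranks of 4, 5 and 5 in replicates 1, 2 and 3. Its summit is shared with Gprk2, for a receptor kinase. LeuRS-m, the mitochondrial leucyl-tRNA synthetase, had 826 at rank 333, with the summit 843 bp upstream and shared with Dhc64C, for the dynein heavy chain. GatA, of the enzyme that makes glutaminyl-tRNA, had 485 at rank 960, and ArgRS-m 241 at rank 2736.

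The initiation factor mIF2 had 183 at rank 3846, and mTerf3, of the termination factor family, had 90.6 at rank 8072, near the end of the list. By class, 1 of 9 translation factors, 3 of 20 genes for charging tRNAs, and 2 of 12 genes for transcription and RNA processing were bound. Of the mitochondrial ribosomal proteins under other names, tko and bonsai, neither was bound, nor were the 2 assembly genes, nor TFAM, the packaging factor of mitochondrial DNA. The share of 13.3% was below that of all protein-coding genes, but its interval holds the background.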

How the data were processed

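ChIP-seq peak lists of 3 biological replicates of 1 group were analysed, with replicate numbers from the labels. Per the labels, chromatin was sonicated to 200 to 800 bp. Per the deposited readme files, the candidate lists come from single libraries with a control or from the pool of 3, and an irreproducible discovery rate analysis gave the optimal list. The authors deposited a signal value per peak. How it was normalized is not stated, so it served for ranks inside 1 list at a time. The peak caller and aligner are not named in the labels or files. Lists on dm3 were not used. Read depth is unknown, so precision was judged by the SD over 3 replicates and by 95% Wilson intervals over genes, which cover counting error only. No test between groups was possible with 1 group.

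Start sites came from Ensembl release 115 (dm6, 19607 starts on 6 arms) and sequence from RefSeq's dm6. A gene's summit is the highest by signal within 1 kb of any start. A replicate peak matched when it covered at least 50% of the optimal peak. The members, lists, motifs and tests were chosen with earlier results of these data known. Of 56 symbols listed for other mitochondrial translation genes, 11 did not occur in the annotation and were left out. Cytosolic ribosomal protein genes were found by symbol and include paralogues.

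Genes were named by a rule, and every other gene named was chosen after its values were seen. It took the 15 members with the highest summit, the 3 most variable between replicates, the 4 highest pooled candidates outside the optimal list, neighbours sharing a summit with the first 15 (1 of which is not reported here), mRpL41, and up to 6 bound and 3 unbound genes of the other list. The scripts ran under Python 3.11.15 with pandas 2.3.3 and numpy 2.4.6. Intervals came from scipy 1.17.1, and figures from matplotlib 3.10.9. The matching steps were tested on simulated peaks. Alternatives covered the distance, the overlap, stricter peak sets, gene biotypes, the motif window and leaving out each replicate.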

Additional observations from a re-analysis of the deposited data

How the results depend on the processing

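Of 123 alternative values, 103 stayed within 1.5 times the main count, or within 1 SD over replicates for a median, 20 moved further and 0 changed sign. Many of the 103 were motif counts of 0 in both settings, and only a median could change sign. The tally is therefore a weak measure of stability. For the 25 bound genes, 22 were left within 500 bp (30.1%, against 17.6% of all genes), 31 were bound within 2 kb (42.5%, against 27.3%), 21 with the higher-signal 50% of the optimal list (28.8%, against 14.2%) and 19 with coverage by the tops of all 3 replicates (26%, against 14.9%). With the nearest start site only, 10 were bound (13.7%, against 16.8%), and the share fell below that of all genes. Leaving out 1 replicate left 19 to 24 bound genes (26% to 32.9%), against 15.7% to 18% of all genes. Small subunit genes were the exception: 6 of 12 were left with coverage by the tops of all 3 replicates, and 6 to 11 with 1 replicate left out. The 6 values came without replicate 1 and without replicate 3, that is, in the sets that need replicate 2. That replicate had narrow peaks at mRpS2 and mRpS6, no overlapping peak at mRpS7 and mRpS24, and the mRpS25 peak at rank 10348. The mRpS16 peak was lost through the other replicates, with ranks of 10098 in replicate 1 and 9163 in replicate 3, against 4783 in replicate 2. With any overlap counted, an alternative added after seeing the data, the median position in the replicate lists was the top 9.27%, against 10% in the main setting. Motif counts moved with the window. With 100 bp to either side, ATGCAAAT was at 1 of 25 summits and ATGCAA at 4, and with 25 bp ATGCAA was at 0. The other moved values were counts of single motifs, most of them with another window and 2 of them for TAATTA (2 in place of 4) without replicate 1 and without replicate 3. These sets are selections from the optimal list, with no new peak calling. No paired analysis was possible because the replicates form 1 group. The lists give no depth, so no limit from depth could be set.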
